A study of Mus musculus with 10 samples.

Results

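A set of 10 genes that encode integrin subunits or other adhesion receptors of T cells was followed in mouse CD8+ T cells that shared a culture with 4T1, a mammary carcinoma line, without or with sodium acetate (NaAc). The genes were taken by name, by a choice made with earlier results of these data known, and all 10 were found among the 57825 genes of the deposited table. They comprise the integrin alpha subunit genes Itgal, Itga4, Itga1 and Itgav, the beta subunit genes Itgb2, Itgb1, Itgb7 and Itgb3, the adhesion ligand gene Icam1 and the hyaluronan receptor gene Cd44.

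RNA sequencing covered 10 samples in 2 groups of 5, and the question was how acetate affects CD8+ T cells in the presence of cancer cells. The T cells of both groups were isolated with a magnetic bead kit from the spleens of female Balb/c mice and activated with plate-bound anti-CD3, anti-CD28 and IL-2 for 12 h. They were then kept for 24 h without NaAc (CD8+4T1) or with 5 mM NaAc (CD8+4T1+NaAc) and co-cultured with 4T1 cells for 48 h, and the labels give day 3 for every sample. RNA came from purified CD8+ T cells, and the way these were separated from the 4T1 cells is not given in the sources used here. The labels do not say whether samples of a group came from separate mice, so p-values measure the spread between these samples, which may be technical. No sample without 4T1 cells was analysed here, and no genetic change is named for either group.

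Integrins are surface receptors built of an alpha and a beta subunit, and the pairing sets which ligand is bound. On T cells, ITGAL with ITGB2 forms LFA-1, which binds ICAM1 on target and antigen-presenting cells and holds the immunological synapse together. ITGB1 and ITGB7 share the partner ITGA4 for binding to VCAM1, fibronectin and the gut addressin MADCAM1, ITGA1 with ITGB1 binds collagen, and ITGAV partners bind vitronectin, fibronectin and latent TGF-beta. CD44, a marker of activated and memory T cells, binds hyaluronan.

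Values are FPKM, which divides the fragments of a gene by its length in kilobases and by the size of the library. Gene positions are given as the deposited table has them, whose genome build is not given in the sources used here. Each library's FPKM referred to 16306447 to 18853726 fragments, of which the listed genes held 95.5 to 97.9% in CD8+4T1 and 89.8 to 92.1% in CD8+4T1+NaAc. The libraries of replicate 1 stood apart in both groups, with 22291 genes above 0 in CD8+4T1 replicate 1 and 20233 in CD8+4T1+NaAc replicate 1 against 23786 to 25088 in the other 8. Defining markers of the labelled cell type were present. Cd8a, a coreceptor subunit, stood at 78.6 ± 2.34 and 76.5 ± 4.37 FPKM (SD, n = 5) without and with NaAc, and Cd8b1 at 147 ± 9.0 and 167 ± 24.4 FPKM. Cd3e, a subunit of the T cell receptor complex, fell from 33.8 ± 1.07 to 26.3 ± 2.06 FPKM (log2 fold change -0.36, SE 0.056, limma adjusted p = 0.000608). The keratin genes Krt8 and Krt18, markers of epithelial cells, rose, with Krt8 at 3.42 ± 1.69 and 34.2 ± 13.1 FPKM (limma adjusted p = 8.1e-05) and Krt18 at 3.37 ± 1.34 and 26.4 ± 12.7 FPKM (limma adjusted p = 0.000174). In bulk RNA, fewer cells of a type and less RNA per cell cannot be told apart.

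Among the 10 members, more were called higher than lower with NaAc. Of the 10 members, 9 reached a mean of 0.5 FPKM over the 10 libraries, the level required for testing, each of them with at least 2.74 FPKM in every library of both groups, and were read from a limma fit over all 15710 genes tested. At an adjusted p under 0.05, 6 members were higher with NaAc (Itgb3, Itga4, Itgb7, Itgb1, Itgav and Itgb2) and 1 was lower (Icam1), against 17.6% of all genes tested called higher and 19.0% called lower. In either direction 7 of 9 were called, against 36.5% of all genes. After rescaling to the same total, and likewise after scaling to CD8 T cell markers, 7 members were higher and 1 lower, with 4900 and 4591 genes of the whole table called higher and 1387 and 1234 called lower, where the deposited scale gave 2764 and 2978. The values of the groups did not overlap for 6 of the 9 members, against 26.4% of all genes. All 9 lay under an absolute log2 fold change of 1, a line that 6.47% of all genes passed with an adjusted p under 0.05. Itgb3 lay over this line, at 1.12, after rescaling to the same FPKM total and after scaling to CD8 T cell markers. Both scalings moved the median of all genes to 0.15, and relative to that median the Itgb3 difference was 0.96 under each. The median log2 fold change was 0.34 over the 9 members and -0.017 over all genes tested. With the libraries of replicate 1 left out of both groups, 6 members were called higher and 1 lower, against 3427 and 3554 of the 15710 genes tested. Itga1 lay below the filter and was read from its fragments.

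**Figure D1:**
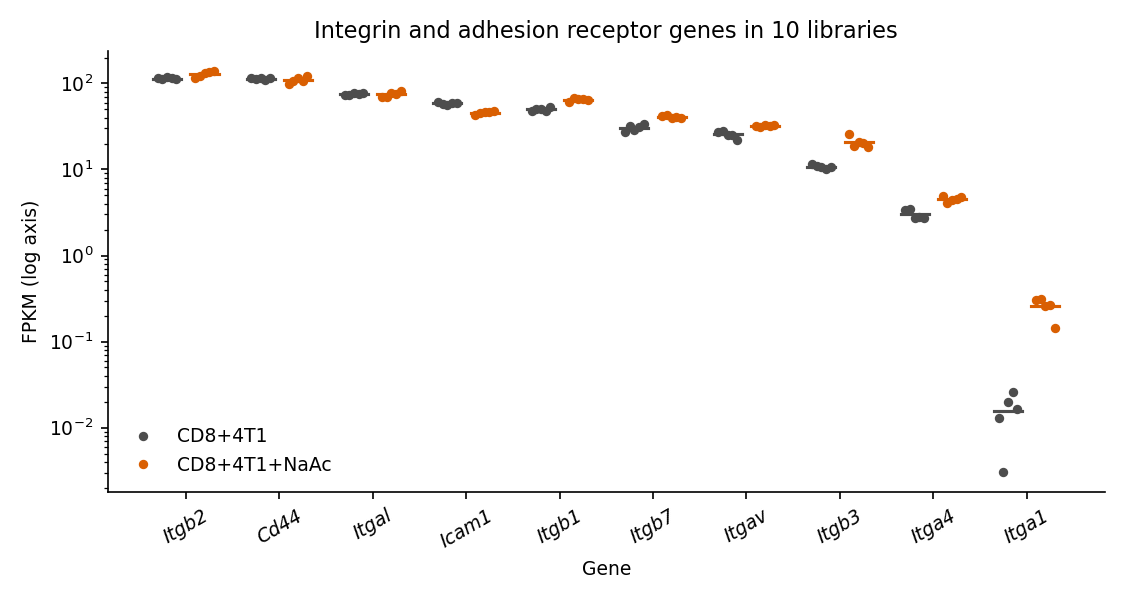
FPKM of the 10 genes (log axis) in each of the 10 libraries. Points are libraries (grey, CD8+4T1; orange, CD8+4T1+NaAc; replicates 1 to 5 from left to right) and bars are group means. The orange points of Itgb3 (18.5 to 26.1 FPKM) all lie above the grey ones (10.2 to 11.7 FPKM), those of Icam1 (42.6 to 48.4 FPKM) all lie below (56.4 to 60.8 FPKM), and Itga1 lies below 0.5 FPKM in every library.

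The LFA-1 subunits differed from each other in their response. Itgb2 (ENSMUSG00000000290, chr10:77366086-77401542, plus strand), the beta subunit shared by the leukocyte integrins, measured 114, 112, 117, 115 and 111 FPKM in CD8+4T1 replicates 1 to 5. In CD8+4T1+NaAc it measured 114, 123, 133, 137 and 140 FPKM. The ranges overlapped through replicate 1 of CD8+4T1+NaAc, and the other 4 libraries with NaAc lay above every library without it. The mean was 13.6% higher (113.9 ± 2.45 against 129.4 ± 10.8 FPKM, SD, n = 5). On the log2 scale this was 0.18 (SE 0.060, limma adjusted p = 0.0377). This call was lost, with adjusted p of 0.0567 to 0.0905 and log2 fold changes of 0.15 to 0.19, when any of the 5 CD8+4T1 libraries or replicate 3, 4 or 5 of CD8+4T1+NaAc was left out. The log2 fold change was 0.36 after rescaling to the same total (limma adjusted p = 0.0009) and likewise after scaling to CD8 T cell markers (limma adjusted p = 0.00031). Both scalings moved the median of all genes to 0.15, and relative to that median the Itgb2 difference was 0.20 under each. Without replicate 1 of both groups, the log2 fold change was 0.23 (limma adjusted p = 0.00498).

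Itgal (ENSMUSG00000030830, chr7:126895432-126934310, plus strand), the alpha subunit of LFA-1, measured 73.4, 74.2, 77.9, 74.5 and 76.4 FPKM in CD8+4T1. With NaAc it measured 68.8, 69.2, 77.5, 76.1 and 81.3 FPKM. Replicates 1 and 2 with NaAc lay below every library without it, replicate 5 lay above them, and the groups overlapped. The log2 fold change was -0.017 with a 95% interval of -0.14 to 0.10 (limma adjusted p = 0.838). Its sign depended on the scaling: after rescaling to the same FPKM total it was 0.16 (limma adjusted p = 0.0385) and after scaling to CD8 T cell markers 0.16 (limma adjusted p = 0.0201). Both scalings moved the median of all genes to 0.15, and relative to that median the Itgal difference was 0.0057 and 0.0059.

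The beta subunits Itgb1 and Itgb7 and their partner Itga4 were higher with NaAc. Itgb1 (ENSMUSG00000025809, chr8:129412135-129459681, plus strand), the beta subunit of the VLA integrins, measured 47.8, 51.1, 50.3, 48.3 and 52.6 FPKM without NaAc. With NaAc it measured 60.2, 67.1, 65.3, 66.3 and 64.7 FPKM. Every library with NaAc lay above every library without it. The mean was 29.4% higher, a log2 fold change of 0.37 (SE 0.046, limma adjusted p = 0.000168).

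Itgb7 (ENSMUSG00000001281, chr15:102124430-102140379, minus strand), the beta subunit of the gut-homing integrin, measured 27.3, 31.6, 29.1, 30.9 and 33.5 FPKM without NaAc. The 5 libraries with NaAc measured 41.4, 43.2, 39.6, 40.9 and 39.3 FPKM. The groups were apart, and the spread within CD8+4T1+NaAc was small, the highest library being 1.10 times the lowest. The log2 fold change was 0.42 (SE 0.058, limma adjusted p = 0.000301), a mean 34.1% higher.

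Itga4 (ENSMUSG00000027009, chr2:79085770-79163467, plus strand), the alpha subunit that pairs with either of these beta subunits, stood lowest of the 9 members tested. It measured 3.36, 3.45, 2.74, 2.84 and 2.74 FPKM without NaAc and rested on 624 to 841 fragments per library. With NaAc it measured 4.90, 4.06, 4.41, 4.5 and 4.74 FPKM. All 5 libraries with NaAc were above all 5 without, and the mean was 49.5% higher (log2 fold change 0.57, SE 0.090, limma adjusted p = 0.000687).

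Itga1 (ENSMUSG00000042284, chr13:115089632-115238500, minus strand), the collagen-binding alpha subunit, was close to the limit of detection without NaAc. In CD8+4T1 it was read from 4, 1, 6, 8 and 5 fragments, or 0.0129, 0.00308, 0.0198, 0.0261 and 0.0163 FPKM. With NaAc it was read from 97, 111, 79, 83 and 45 fragments, or 0.305, 0.317, 0.257, 0.264 and 0.146 FPKM. The groups were far apart, with replicate 5 the lowest of the libraries with NaAc. Summed over each group, 24 fragments stood against 415, and per fragment of the scaling the ratio was 16.8 (95% exact interval 11.1 to 26.5, counting error only). The means differed by 4.04 on the log2 scale (exact permutation test over all splits, two-sided, p = 0.00794, the smallest this design can give). The level with NaAc, 0.258 ± 0.0676 FPKM (SD, n = 5), was still the lowest of the 10 members. In the limma fit without a filter its log2 fold change was 1.61 (adjusted p = 0.000789), a value that the added 0.1 FPKM compresses. Pelo, which lies inside Itga1 on the same strand, had a mean of 2.52 FPKM over all samples, and the strand setting of the counting is not given in the sources used here.

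The vitronectin receptor genes also rose. Itgb3 (ENSMUSG00000020689, chr11:104498826-104561302, plus strand), which pairs with ITGAV and in platelets with ITGA2B, measured 11.7, 10.9, 10.6, 10.2 and 10.6 FPKM without NaAc. The libraries with NaAc gave 26.1, 19.0, 21.0, 20.1 and 18.5 FPKM. The groups did not overlap, and replicate 1 with NaAc stood above the other 4. Its mean rose 1.94-fold (10.8 ± 0.549 against 20.9 ± 3.04 FPKM, SD, n = 5). On the log2 scale the rise was 0.94 (SE 0.088, limma adjusted p = 3.58e-05), the largest of the 9 members tested. Itga2b, the platelet partner of Itgb3, was at 3.80 and 3.81 FPKM (limma adjusted p = 0.972), and the summed markers of platelets and megakaryocytes overlapped between the groups (10.1 to 19.3 against 10.96 to 14.8 FPKM).

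Itgav (ENSMUSG00000027087, chr2:83554741-83637260, plus strand), the alpha subunit of the vitronectin receptors, measured 27.2, 27.7, 25.5, 24.9 and 22.2 FPKM without NaAc. Values of 31.8, 30.9, 33.1, 32.1 and 32.7 FPKM were measured with NaAc. The groups were apart, and the libraries with NaAc lay within 1.07-fold of each other. The log2 fold change was 0.34 (SE 0.060, limma adjusted p = 0.00148), and it was 0.51 after rescaling to the same total and after scaling to CD8 T cell markers. Both scalings moved the median of all genes to 0.15, and relative to that median the Itgav difference was 0.36 under each.

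Icam1 (ENSMUSG00000037405, chr9:20927281-20940113, plus strand), the ligand of LFA-1 that activated T cells also carry, was the member called lower. Its level was 60.8, 57.7, 56.4, 58.9 and 59.4 FPKM without NaAc. Under NaAc it fell to 42.6, 45.1, 45.9, 47.0 and 48.4 FPKM. Every library with NaAc lay below every library without it, and the mean fell by 21.9% as deposited. The log2 fold change was -0.36 (SE 0.045, 95% interval -0.46 to -0.26, limma adjusted p = 0.000188). After rescaling to the same total the log2 fold change was -0.18 (limma adjusted p = 0.0178) and after scaling to CD8 T cell markers -0.18 (limma adjusted p = 0.0284). Both scalings moved the median of all genes to 0.15, and relative to that median the Icam1 difference was -0.33 under each.

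Cd44 (ENSMUSG00000005087, chr2:102641486-102732010, minus strand), the hyaluronan receptor, measured 115, 114, 116, 108 and 116 FPKM without NaAc. With NaAc it measured 99.8, 106, 114, 108 and 122 FPKM. Replicate 1 with NaAc was the lowest and replicate 5 the highest of all 10 libraries, and the groups overlapped. The log2 fold change was -0.053 with a 95% interval of -0.18 to 0.072 (limma adjusted p = 0.503). It turned to 0.12 after rescaling to the same total (limma adjusted p = 0.118) and after scaling to CD8 T cell markers (limma adjusted p = 0.105). Both scalings moved the median of all genes to 0.15, and relative to that median the Cd44 difference was -0.031 under each.

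**Figure D2:**
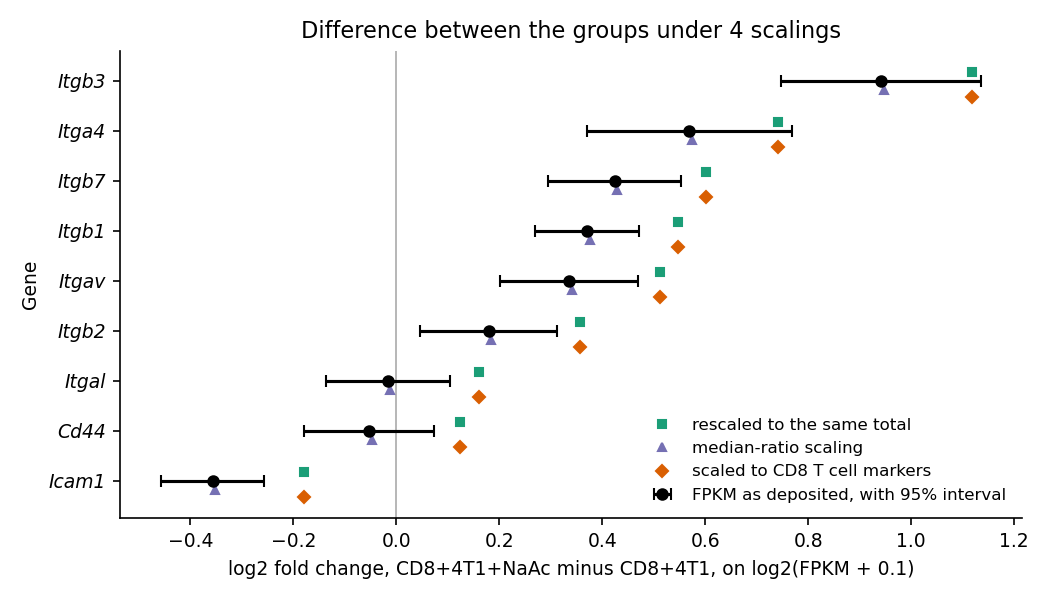
Log2 fold change (CD8+4T1+NaAc minus CD8+4T1, horizontal axis) of the 9 members tested, as fitted on the deposited FPKM (black, with 95% interval) and under 3 other scalings of the libraries (coloured). Icam1 lies below 0 and the 6 members called higher lie above 0 under all 4 scalings, and Itgal (-0.017 to 0.16) and Cd44 (-0.053 to 0.12) cross 0.

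Promoters from RefSeq (build GRCm38.p6, whose positions differ from those of the deposited table) were matched for 7 of the 10 members, and the 250 bases before the gene start are shown for Icam1, the member that fell, and for Itgb1, Itgb7 and Itga1 among those that were higher. Each runs 5′ to 3′ on the gene's strand, and capitals mark matches, on either strand, to 5 motifs that were searched: GGAAATTCC (NF-kB type), TTCCNGGAA (STAT type), CCGCCC (GC box), AGGAAG (ETS type) and TGANTCA (AP-1 type). No capitals of one motif overlap those of another in these 4 sequences.
Icam1, chr9:21015690-21015939, plus strand: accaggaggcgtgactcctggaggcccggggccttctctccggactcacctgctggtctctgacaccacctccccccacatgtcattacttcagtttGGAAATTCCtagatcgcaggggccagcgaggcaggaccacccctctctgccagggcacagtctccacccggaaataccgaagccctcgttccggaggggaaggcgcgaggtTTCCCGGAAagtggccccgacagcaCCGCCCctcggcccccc
Itgb1, chr8:128685404-128685653, plus strand: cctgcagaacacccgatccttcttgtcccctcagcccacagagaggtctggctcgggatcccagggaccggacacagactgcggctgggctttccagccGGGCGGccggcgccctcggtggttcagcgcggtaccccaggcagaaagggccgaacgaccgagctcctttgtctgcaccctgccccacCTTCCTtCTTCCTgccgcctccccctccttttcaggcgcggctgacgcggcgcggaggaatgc
Itgb7, chr15:102231936-102232185, minus strand: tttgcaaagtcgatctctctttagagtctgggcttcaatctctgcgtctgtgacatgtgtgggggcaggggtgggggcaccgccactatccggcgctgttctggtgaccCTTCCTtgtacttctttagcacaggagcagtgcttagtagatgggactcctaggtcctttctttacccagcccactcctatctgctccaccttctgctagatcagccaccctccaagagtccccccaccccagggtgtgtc
Itga1, chr13:115101965-115102214, minus strand: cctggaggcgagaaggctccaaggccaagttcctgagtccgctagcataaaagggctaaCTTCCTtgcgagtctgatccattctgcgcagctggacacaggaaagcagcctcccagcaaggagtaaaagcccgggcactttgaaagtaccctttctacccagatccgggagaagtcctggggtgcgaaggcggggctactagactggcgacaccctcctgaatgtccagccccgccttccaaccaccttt
Of the 7 promoters matched, that of Icam1 alone held the NF-kB type motif, which starts 153 bases before the gene start and which 0.286% of the 32851 promoters of this length hold. It was also alone in holding the STAT type motif, 42 bases before the start, found in 0.913% of all promoters. The GC box stood in Icam1, Itgb1 and Itga4 (32.7% of all promoters) and the ETS type motif in Itgb1, Itgb7, Itga1, Itgav and Cd44 (29.5%). The AP-1 type motif, which 6.75% of all promoters hold, was in none of the 7. A match describes the letters in this window and is no evidence of binding.

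Per kilobase of gene, the order of the members changed at a single place. Without NaAc, Itgb2 and Cd44 stood highest, at means of 113.946 and 113.889 FPKM, and did not differ beyond their spread (Itgb2 was above Cd44 in 2 of 5 libraries). Itgal, Icam1 and Itgb1 followed at 75.3, 58.6 and 50.03 FPKM with separate ranges, then Itgb7 and Itgav at 30.5 and 25.5 FPKM with overlapping ranges, then Itgb3, Itga4 and Itga1. With NaAc, Itgb2 was above Cd44 in all 5 libraries, although their ranges over the group overlapped, and Itgb1 stood above Icam1. The ratio of Itgb1 to Icam1 was 0.787 to 0.893 in the 5 libraries without NaAc and 1.34 to 1.49 in the 5 with it. This pair was picked after its values were seen and is given without a test. Icam1, at 45.8 FPKM, then overlapped Itgb7, at 40.9 FPKM.

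Ratios of 2 subunits inside a library do not depend on how libraries are scaled. Of 8 ratios compared, 3 had groups that did not overlap. The ratio of Itgal to Itgb2, the LFA-1 pair, was 0.641 to 0.688 without NaAc and 0.554 to 0.602 with it, a difference of -0.20 on the log2 scale (exact permutation test, two-sided, p = 0.00794, adjusted over the 8 ratios 0.0212). The ratio of Itgav to Itgb3 was 2.10 to 2.55 without NaAc and 1.22 to 1.77 with it, a difference of -0.61 (exact permutation p = 0.00794, adjusted 0.0212). Both pairs thus held relatively more beta subunit RNA with NaAc in every library. The ratio of Itga1 to Itgb1 was 3.92 higher on the log2 scale (exact permutation p = 0.00794, adjusted 0.0212), or 1.24 higher with 0.1 FPKM added to both genes.

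Itgb1 also rose relative to Itgb2, by 0.19 on the log2 scale, with ranges of 0.418 to 0.473 and 0.461 to 0.546 that overlapped (exact permutation p = 0.0159, adjusted 0.0317). The other 4 ratios were not separated. The ratio of Itga4 to Itgb1 differed by 0.21 (exact permutation p = 0.0952, and 0.27 with p = 0.0397 without replicate 1 of CD8+4T1) and that of Itga4 to Itgb7 by 0.16 (exact permutation p = 0.238). Itgb7 to Itgb1 differed by 0.054 (exact permutation p = 0.278) and Itgav to Itgb1 by -0.035 (exact permutation p = 0.667). The lowest and highest ratios of Itgb7 to Itgb1 over all 10 libraries were 0.571 and 0.687.

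**Figure D3:**
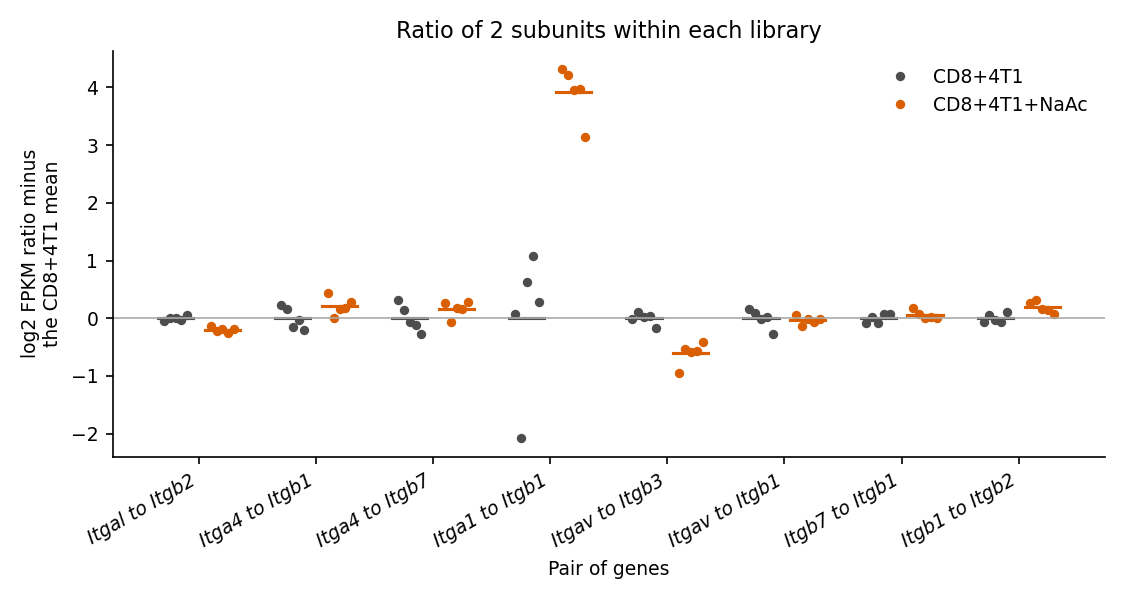
Log2 ratio of the FPKM of 2 subunit genes within each library, minus the mean of the CD8+4T1 libraries (vertical axis), for the 8 pairs. Points are libraries and bars are group means; the groups are apart for Itgal to Itgb2 (-0.20), Itga1 to Itgb1 (3.92) and Itgav to Itgb3 (-0.61).

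Over all 8 beta subunit genes, the summed FPKM was 202 to 209 without NaAc and 250.4 to 272 with it. Itgb2 made up 53.1 to 56.6% of this sum without NaAc and 45.6 to 52.5% with it, so that its share was smaller in every library with NaAc although its level was not lower. The share of Itgb3 was 4.97 to 5.77% without NaAc and 6.92 to 10.4% with it. Itgb1 held 23.5 to 25.1% and 24.03 to 25.6%, and Itgb7 13.5 to 16.0% and 14.7 to 16.5%, with overlapping ranges. Among the 18 alpha subunit genes, Itgal held 50.5 to 55.9% without NaAc and 38.7 to 47.1% with it. Itga3, a laminin receptor subunit, held 6.17 to 8.18% and 11.5 to 19.4%.

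**Figure D4:**
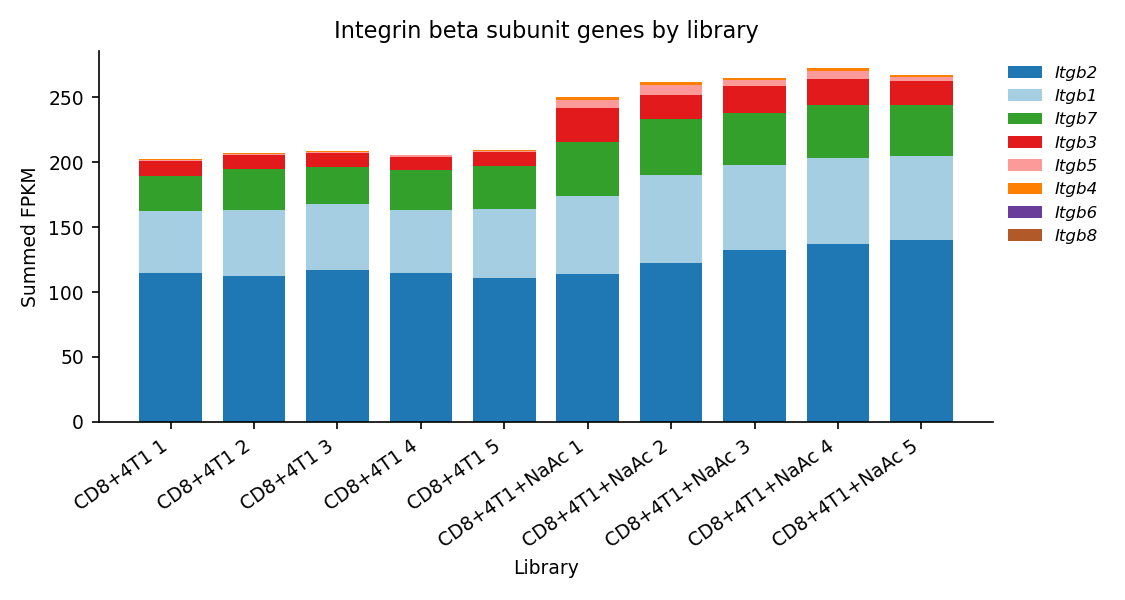
Summed FPKM of the 8 integrin beta subunit genes in each library (stacked bars, 1 colour per gene). The sum is 202 to 209 FPKM in CD8+4T1 and 250.4 to 272 FPKM in CD8+4T1+NaAc, and Itgb2, the lowest layer, falls from 53.1 to 56.6% of it to 45.6 to 52.5%.

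Among the other integrin subunit genes, 6 of 11 tested (18 listed) rose, against 17.6% of all genes tested, and the other 5 were not called. Itga2 passed the filter on low values through the group with NaAc alone, and of the 10 subunits at 0.5 FPKM or more in both groups 5 rose. The median log2 fold change over the 11, Itga2 included, was 0.71. Over the 10 at 0.5 FPKM or more in both groups, it lay between 0.27 (Itgae) and 0.71 (Itga6). Itgb5, an ITGAV partner, rose from 0.794 ± 0.188 to 5.62 ± 1.68 FPKM (SD, n = 5; log2 fold change 2.65, limma adjusted p = 2.71e-05). Itgb4, whose product anchors epithelial cells to laminin, rose from 0.556 ± 0.0645 to 1.80 ± 0.408 FPKM (log2 fold change 1.51, or 0.83 with a pseudocount of 1, limma adjusted p = 0.000157 and 0.000246). Itga3 rose from 10.1 ± 1.24 to 28.0 ± 5.68 FPKM (log2 fold change 1.44, limma adjusted p = 4.62e-05). With the pseudocount of 0.1 these 3 rose by more than any of the 9 members tested.

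Genes of integrin activation and of the adaptors that couple integrins to actin moved in both directions. Of 24 tested (26 listed) 9 were higher and 6 lower, against 17.6% and 19.0% of all genes, with a median log2 fold change of 0.13. Rescaling to the same total and scaling to CD8 T cell markers each gave 15 higher and 2 lower. Of all 15710 genes, these scalings called 4900 and 4591 higher and 1387 and 1234 lower. Fermt2, the kindlin of adherent cells, rose by 2.38 on the log2 scale from a mean of 0.371 FPKM (limma adjusted p = 0.00012; 1.25 with a pseudocount of 1), and it passed the filter through the group with NaAc alone (8 of the other 23 were higher). Vcl, the actin linker vinculin, rose by 1.18 from 2.88 FPKM (limma adjusted p = 2.18e-05) and Ptk2, the focal adhesion kinase, by 1.25 from 1.29 FPKM (limma adjusted p = 0.000363). Among the genes that fell, Rap1a, a GTPase that switches integrins on, fell by 0.52 from 43.7 FPKM (limma adjusted p = 0.000436), and Parvg, a parvin of blood cells, fell by 0.41 from 44.1 FPKM (limma adjusted p = 0.00243). Both scalings named above brought Rap1a to -0.35 (limma adjusted p = 0.00753 and 0.0217) and Parvg to -0.23 (limma adjusted p = 0.0247 and 0.0364). Fermt3, the kindlin of blood cells, fell by 0.25 from 43.3 FPKM (limma adjusted p = 0.0093), a call lost after rescaling to the same total (-0.076, limma adjusted p = 0.349) and scaling to CD8 T cell markers (-0.075, limma adjusted p = 0.254). The median of all genes moved to 0.15 under both scalings.

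Ligand genes of the integrins and CD44 rose in 9 of 13 tested (20 listed) and fell in 1, against 17.6% and 19.0% of all genes, with a median log2 fold change of 1.15. The list includes the hyaluronan synthase genes Has1, Has2 and Has3, whose products make the CD44 ligand and are not ligands themselves. Of these, Has2 alone was tested, and it is among those that rose. Rescaling to the same total and scaling to CD8 T cell markers each gave 10 higher and 0 lower. Of all 15710 genes, these scalings called 4900 and 4591 higher and 1387 and 1234 lower. Has2 and Col1a2 passed the filter through the group with NaAc alone, and of the 11 at 0.5 FPKM or more in both groups 8 rose and 1 fell. Fn1, which encodes fibronectin, rose from 1.43 ± 0.474 to 19.7 ± 5.13 FPKM (log2 fold change 3.70, limma adjusted p = 9.29e-06). Col4a2, a basement membrane collagen, rose by 3.59 on the log2 scale (limma adjusted p = 2.78e-05) and Lamb1, a laminin chain, by 3.25 (limma adjusted p = 2.4e-05). Tgfb1, whose latent product binds ITGAV integrins, fell by 0.22 from 56.8 FPKM (limma adjusted p = 0.00682), a call lost after rescaling to the same total (-0.043, limma adjusted p = 0.601) and scaling to CD8 T cell markers (-0.043, limma adjusted p = 0.682). The median of all genes moved to 0.15 under both scalings.

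Of 16 other adhesion receptors of T cells, all tested, 6 were higher and 3 lower, with a median log2 fold change of 0.043. Of all genes tested 17.6% were called higher and 19.0% lower, so that the count of lower genes is close to that share. The lower count was 1 with the replicate block, without a filter and without trend and robust moderation. It was also 1 without CD8+4T1 replicate 2, 3 or 5, or without CD8+4T1+NaAc replicate 2 or 3. After rescaling to the same total 9 were higher and after scaling to CD8 T cell markers 10, and 0 were lower under either. Of all 15710 genes, these scalings called 4900 and 4591 higher and 1387 and 1234 lower. Ceacam1 passed the filter through the group with NaAc alone, and 5 of the other 15 were higher. The tetraspanin gene Cd9 rose from 21.0 ± 1.02 to 45.8 ± 2.76 FPKM (log2 fold change 1.12, limma adjusted p = 3.88e-06). Cd151, a tetraspanin that associates with laminin-binding integrins, rose by 1.09 (limma adjusted p = 0.000493). Crtam, a receptor of activated CD8+ T cells, rose from 14.3 ± 1.49 to 25.5 ± 2.68 FPKM (log2 fold change 0.83, limma adjusted p = 6.64e-05).

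Markers of other cells moved with NaAc beside these genes. The 15 epithelial and 4T1 markers summed to 29.2 to 39.1 FPKM without NaAc and to 83.1 to 196 FPKM with it. Of the 8 tested 5 rose, against 17.6% of all genes tested. Krt7 and Cldn3 among them passed the filter through the group with NaAc alone, and of the other 6 tested 3 rose. Of these sums 20.7 FPKM without NaAc and 19.2 FPKM with it came from Spint2 (limma adjusted p = 0.141), which was singled out after its values were seen. No marker of this list was at 0 in all libraries, and Epcam, a defining marker, measured 0.519 and 0.699 FPKM (limma adjusted p = 0.305). The 10 myeloid markers summed to 3.91 to 7.67 FPKM and 8.49 to 12.02 FPKM, with S100a9 at 0 in every library, Itgam at 0.0550 and 0.107 FPKM, Csf1r at 0.0707 and 0.0860 FPKM and Lyz2 at 0.536 and 1.12 FPKM (limma adjusted p = 0.0328). Of the 4 myeloid markers tested 3 rose, against 17.6% of all genes tested. Beside Lyz2 these were S100a8, from 0.398 to 2.94 FPKM (log2 fold change 2.86, limma adjusted p = 0.00181), and Mpeg1, from 0.905 to 1.83 FPKM (0.95, limma adjusted p = 0.0152). Both were named after their values were seen, and S100a8 passed the filter through the group with NaAc alone. Cd4, the coreceptor of CD4 T cells, also named after its values were seen, rose from 0.541 ± 0.169 to 1.60 ± 0.187 FPKM (SD, n = 5; log2 fold change 1.44, limma adjusted p = 0.000317) with no overlap of the groups, while the 3 CD4 T cell markers summed to 13.5 to 15.3 FPKM without NaAc and 11.7 to 17.9 FPKM with it. CD8 T cell markers overlapped, at 838 to 933 and 765 to 873 FPKM summed, and 5 of the 10 fell as deposited, against 19.0% of all genes tested. After rescaling to the same total 4 were lower and 3 higher (1387 and 4900 of all 15710 genes). After scaling to these markers themselves 3 were lower and 3 higher (1234 and 4591 of all genes), with Cd3e at -0.19 (limma adjusted p = 0.0819).

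Within the 5 libraries with NaAc, the epithelial sum was highest in replicate 2 and lowest in replicate 5, 2.36-fold apart. Itga1 was highest and lowest in the same libraries, 2.17-fold apart, but the orders differed between them: replicate 1 had the epithelial sum nearest the lowest (93.2 FPKM) and the Itga1 level nearest the highest (0.305 against 0.317 FPKM). Fn1 (2.14-fold from lowest to highest), Col4a2 (2.69-fold), Itgb5 (2.28-fold) and Krt8 (2.68-fold) varied as widely among these libraries. Itgav (1.07-fold), Itgb7 (1.10-fold), Itgb1 (1.11-fold) and Itga4 (1.21-fold) varied less, and Itgb3 (1.41-fold) was highest in replicate 1. These folds are of whole levels. Means without NaAc were 25.5, 30.5 and 50.03 FPKM for Itgav, Itgb7 and Itgb1, against 0.0156 FPKM for Itga1. The spreads are therefore not like measures of what was added with NaAc. The part of 4T1 RNA in the rise of the members, the other subunits, the adaptors and the ligands was not tested.

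**Figure D5:**
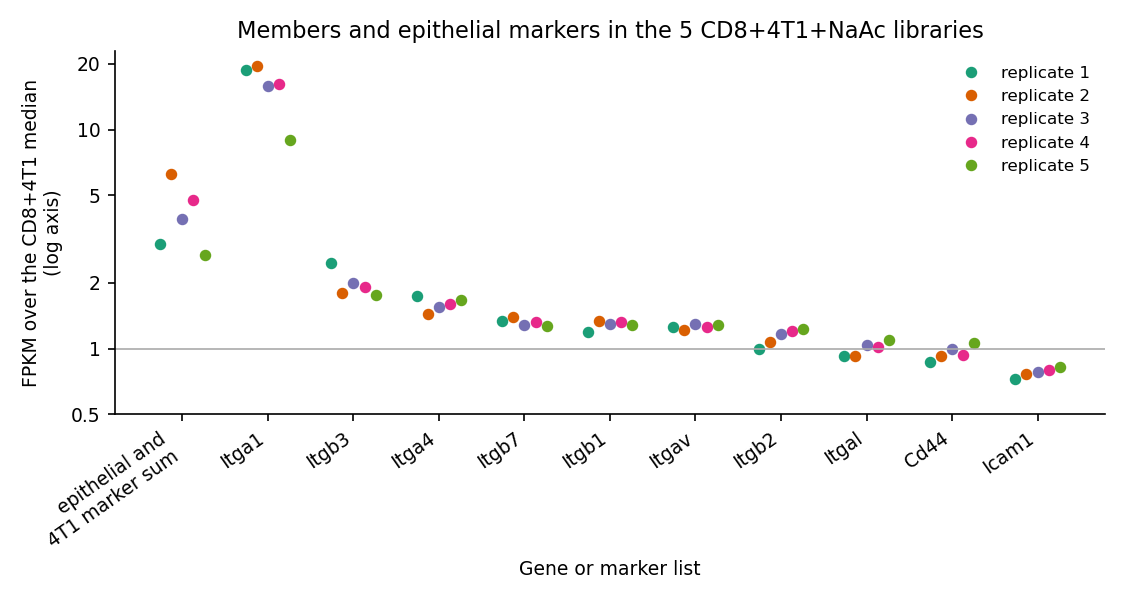
FPKM of each member, and of the sum of 15 epithelial and 4T1 markers, in the 5 CD8+4T1+NaAc libraries divided by the median of the CD8+4T1 libraries (log axis; colours are replicates, the grey line is 1). The marker sum spreads 2.36-fold and Itga1 2.17-fold between libraries. The points of Itgb7, Itgb1 and Itgav, whose levels without NaAc were far above that of Itga1, stay within 1.11-fold.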

How the data were processed

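The authors deposited FPKM, in which the fragments of a gene are divided by its length and by the size of the library, as 1 column per sample with no pooling. Gene length, an other column that the authors deposited beside them, is unnormalized. The submitters' processing notes name fastp, HISAT2 2.0.5, StringTie 1.3.3b and featureCounts 1.5.0-p3. The genome build, the annotation and the strand setting are not given in the sources used here, and positions are those of the deposited table. FPKM times gene length rose in steps of 1 size within a library, which gave the fragments that its scaling refers to, and with these 100% of values came out as whole fragments (within 0.1). Intervals on fragments cover counting error only.

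FPKM are not counts, so the groups were compared on log2(FPKM + 0.1) by limma 3.58.1 (R 4.3.3) with the trend and robust options, over the 15710 of 57825 genes whose mean reached 0.5 FPKM. The threshold was an adjusted p of 0.05 (Benjamini-Hochberg over all 15710), and fold changes on this scale understate changes of low genes. Limma on simulated data of this comparison called 81.9% of genes changed 2-fold and 92.5% of those changed 4-fold over 14915 genes, and 0.0475% of unchanged genes. The simulation gave all genes a common spread and changed 187 of those tested, whereas 36.5% of genes were called in the data. All 9 members tested changed by less than 2-fold, so these rates do not describe the calls among them. Ratios were tested by exact permutation, two-sided.

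The members and lists were chosen with earlier results of these data known. Named genes were the 10 members, from each other list the up to 3 largest rises and 3 largest falls among genes called, with means of 1 FPKM or more and separate groups, and fixed cell markers. The values of 1 other adhesion receptor, which is part of the counts, are not reported here. Marker lists covered CD8 T cells, epithelial and 4T1 cells, myeloid cells, B cells (0 of 2 tested called), CD4 T cells (1 of 2, Cd4, higher), NK cells (0 tested), platelets and megakaryocytes (0 of 3) and fibroblasts and endothelium (1 of 1, higher, Pdgfra, past the filter through the group with NaAc alone).

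The alternatives were other pseudocounts (1 and 0.01), no filter, a filter at 5 FPKM, median-ratio scaling, an equal FPKM total in every library, scaling to CD8 T cell markers, limma without trend and robust moderation, array weights, the replicate block, voom on the recovered fragments, a fold change line, an adjusted p under 0.01, each library left out in turn and replicate 1 of both groups left out. The alternatives for Itga1 alone, and the ratio of Itgb1 to Icam1, were chosen after seeing the data. Promoters came from RefSeq (GRCm38.p6), and the 50 bases after the start were left out. Figures were drawn with matplotlib 3.10.9.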

Additional observations from a re-analysis of the deposited data

Results flagged for a closer look

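Of 42 groups of 5 values checked for a sample far from the others, 4 were flagged, where chance flags about 1 in 20. Each value below is the gap to the nearest sample divided by the group's range, against a limit of 0.71. Itga1 in CD8+4T1+NaAc replicate 5 (0.733) lay at -2.78 on the log2 FPKM scale against -1.96 to -1.66 in the other 4 libraries. The fragments of CD8+4T1+NaAc replicate 2 (0.747) numbered 18853726. The number of genes above 0 was low in replicate 1 of both groups, at 22291 in CD8+4T1 (0.848) and 20233 in CD8+4T1+NaAc (0.916). The cause of these gaps was not tested.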

How the results depend on the processing

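At an adjusted p under 0.05, Itgb2 lost its call in 11 of its 22 other fits, and Itgb1, Itgb7, Itga4 (21 fits, since it lay below the filter of 5 FPKM), Itgav, Itgb3 and Icam1 kept direction and call in each. An adjusted p under 0.01 left 6 of the 7 members called, without Itgb2, and a log2 fold change over 1 left none. Itgb2 passed 0.05 no longer without a filter (limma adjusted p = 0.0578) and without trend and robust moderation (0.0556). Itgal turned to 0.16 after rescaling to the same total and scaling to CD8 T cell markers, to 0.0042 with array weights, to 0.0025 without replicate 1 of both groups and ranged from -0.049 to 0.012 with single libraries left out. Cd44 turned to 0.12 under the same 2 scalings, where it was -0.031 relative to the median of all genes. The ratio of Itgav to Itgb1 ranged from -0.10 to 0.0060 with single libraries left out. A mean of at least 5 FPKM left 3733 genes, 2 other integrin subunits, 13 activation genes, 8 ligand genes and 8 other adhesion receptors called, with fewer genes tested. An adjusted p under 0.01 left 3702 genes, 6 other integrin subunits, 12 activation genes, 10 ligand genes and 5 other adhesion receptors. With a log2 fold change over 1, 1016 genes, 0 members, 4 other integrin subunits, 3 activation genes, 7 ligand genes and 3 other adhesion receptors were called. The causes of the turns were not tested.

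The labels do not say whether the replicate numbers pair the samples. The correlation of same-numbered samples' deviations was -0.028 to 0.069, which cannot exclude a pairing. The best-correlated library of the other group had the same number for replicates 1 and 4 and another number for replicates 2, 3 and 5. With the replicate block 5399 genes and 6 of 9 members were called, Itgb2 (limma adjusted p = 0.0573) no longer. The sign permutation over 5 pairs cannot go below 0.0625, so it says nothing about the ratios.

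Limits: Itga1 without NaAc rests on 24 fragments in all, and differences there below the counting interval were not detectable at this depth.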
